A study of Mus musculus with 3 samples.

Results

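Isolated H3K4me3 regions, those lying alone in long stretches of mouse chromosome without any other called peak, were examined in adult hippocampus of Huntington's disease model mice and of their littermates. The peak lists of the 2 libraries were joined wherever peaks overlapped by at least 1 bp, which gave 20211 regions, 17367 of them with peaks of both libraries. Members were chosen by these measured values: a region was called isolated when both libraries had a peak in it, the authors' score reached 100 in at least 1 library, the mean covered length of the libraries was below 5000 bp, and the next region lay at least 250 kb away on each side. These conditions were met by 520 regions, 2.57% of all regions and 3.29% of the 15789 regions of both libraries that passed the same limits on score and length. The remaining 15269 of those regions, with a neighbour nearer than 250 kb or no neighbour on a side, served for comparison and are called the other regions.

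H3K4me3 is trimethylation of lysine 4 of histone H3. It is laid down by the SET1 and MLL methyltransferases around the start sites of active and poised genes, most often over CpG islands, and in brain chromatin it marks promoters of neurons and glia together. Mammalian genes are spread unevenly, and long gene-poor stretches often flank developmental and neuronal genes, so a lone H3K4me3 peak usually stands at one of few promoters in a wide interval.

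The WT library came from wild-type hippocampus and the HD library from N171-82Q hippocampus, both from adult males of a C57/DBA F1 hybrid background, and the controls were littermates. N171-82Q mice carry a transgene for an N-terminal fragment of human huntingtin with an expanded glutamine tract, driven by the prion protein gene promoter, in addition to their own Htt alleles. Each library was made from the pooled hippocampi of 3 mice, so it averages animals and cell types. Each genotype had 1 library, and nothing below could be set against a spread between animals. The labels tie the WT reads, but not the HD reads, to an older data set, so genotype and any sequencing batch cannot be told apart.

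The peak lists held 18515 WT and 19631 HD peaks with scores from 50.01 to 3233 in each. The score is the authors' value for a peak on the scale of its own library. The files give no read counts, so depth is unknown, and in bulk tissue a mark carried by fewer cells and a weaker mark per cell cannot be told apart. Covered length is the number of base pairs under a library's peaks in a region, and the length ratio is the log2 of the HD over the WT covered length. It can move with depth and with the calling settings, and their part in the differences below was not tested. Intervals are 95% order-statistic intervals for medians and exact binomial intervals for shares; they cover counting error over regions only.

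The isolated regions lay in stretches of about a megabase. The smaller of a region's gaps ran from 250.7 kb to 3.93 Mb with a median of 380.3 kb, and the larger gap ran from 265.6 kb to 10.2 Mb with a median of 770.6 kb. In 178 regions, 34.2%, at least 1 gap reached 1 Mb, and in 29 regions both did. The stretches around all 520 regions, from the neighbour on the left to the neighbour on the right, added up to 693 Mb after overlaps were removed.

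These regions were often next to each other. In 254 of the 520, 48.8% (44.5 to 53.2%), at least 1 of the flanking regions was isolated as well. Counted as unbroken series, 266 isolated regions stood singly, 82 series held 2, and 17 held 3. The longest held 7 and lay on the X chromosome. For 374 isolated regions both neighbours had peaks in both libraries. The remaining 146 had a neighbour called in 1 library, a WT-only one in 78 and an HD-only one in 73, and 8 had no neighbour called in both. The median length ratio was -0.13 both in those with shared neighbours on each side and in those without.

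The X chromosome had the highest share of isolated regions. Of its 532 regions of both libraries within the score and length limits, 53 were isolated, 9.96% (7.55 to 12.8%), against 3.06% (2.79 to 3.35%) on the autosomes together. Chromosome 1 followed with 48 of 883, 5.44%, and chromosome 3 with 37 of 789, 4.69%. The lowest shares were those of chromosome 19, 4 of 505 or 0.792%, and chromosome 11, 14 of 1220 or 1.15%. The Y chromosome had none among its 4 such regions. Isolated regions on X also lay in wider stretches, with a median of 1.59 Mb (1.18 to 2.23 Mb) from neighbour to neighbour against 1.13 Mb (1.07 to 1.22 Mb) on autosomes. These intervals overlapped slightly. The other regions on X likewise lay in wider stretches than those on autosomes, with medians of 0.177 and 0.102 Mb.

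**Figure D1:**
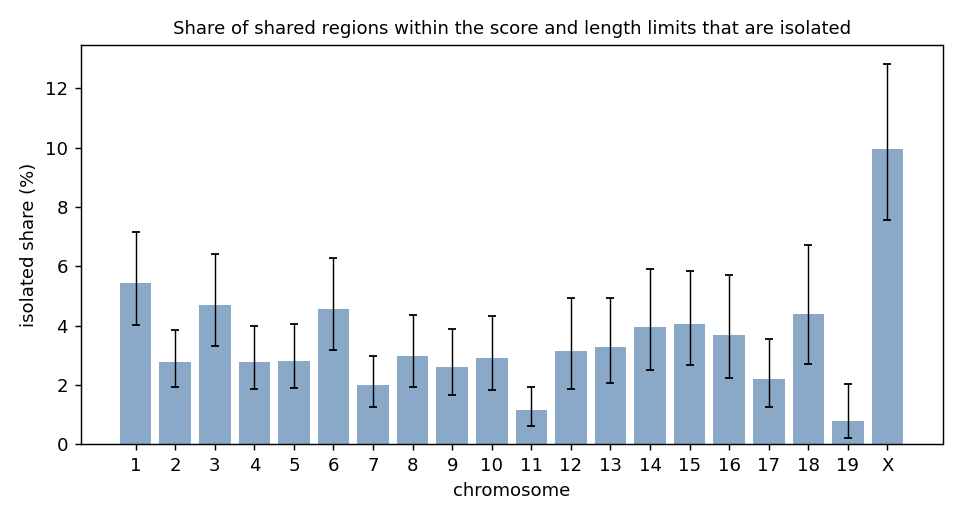
Share of the regions of both libraries within the score and length limits that were isolated, by chromosome (y axis in percent; bars, share; lines, exact 95% binomial intervals). The X chromosome stood highest at 9.96% and chromosome 19 lowest at 0.792%.

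In width, the isolated regions were longer than the other regions in the WT library. Their median covered length was 2586.5 bp in WT (2479 to 2721 bp) and 2306 bp in HD (2177 to 2424 bp), against 2356 bp (2338 to 2373 bp) and 2210 bp (2193 to 2224 bp) in the other regions. The difference of the medians, isolated minus other, was 230.5 bp in WT (106 to 383 bp) and 96 bp in HD (-47 to 231 bp). These intervals set the ends of the separate intervals against each other. Over all scores together, the excess in HD was thus not separated from 0. Between quartiles the isolated regions covered 1795 to 3509.5 bp in WT and 1665 to 3152 bp in HD. The upper end was drawn out: 67 isolated regions, 12.9% (10.1 to 16.1%), covered more than 4 kb in WT, against 7.00% (6.60 to 7.42%) of the other regions. At the short end the shares lay close together, 15.0% (12.0 to 18.4%) and 14.6% (14.0 to 15.1%) below 1.5 kb in WT. The rule's limit of 5000 bp on mean length cuts the upper end in both sets. Without that limit the difference of the WT medians was 268.5 bp (116 to 427 bp).

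Their scores were not higher, and in HD they were lower. The median score was 875 in WT (769 to 960) and 1264 in HD (1130 to 1394), which put the median isolated region at the 51.1 percentile of the WT list and the 52.5 percentile of the HD list. For the other regions the median scores were 953 in WT (935 to 972) and 1460 in HD (1431 to 1489), and these percentiles were 54.0 and 56.7. The intervals of the median scores overlapped in WT and were apart in HD. The HD score was above the WT score in 83.7% of the isolated and 88.6% of the other regions, each on its own library's scale. Lengths in WT were also compared among regions of like score. With WT scores of 500 to 1000, the median WT covered length was 2680 bp in 108 isolated and 2262 bp in 2930 other regions. For scores of 1000 to 2000 it was 3122.5 bp and 2689 bp, and from 2000 upwards 3953 bp and 3369 bp. Below a score of 500 the sets did not separate in this way. With scores of 200 to 500 the medians were 1822 and 1833 bp, and below 100 the isolated regions were the shorter, at 1168 bp against 1282 bp. The HD lengths in these WT score classes differed likewise. Isolated and other regions had HD medians of 2359.5 and 2117.5 bp at 500 to 1000. At 1000 to 2000 they were 2879.5 and 2495 bp, and from 2000 upwards 3538 and 3116 bp. At 200 to 500 they were 1726 and 1730 bp. The classes were chosen with the values known.

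In the HD library the isolated regions covered less than in WT. The median length ratio was -0.13 (-0.15 to -0.11), or 8.54% less in HD (7.36 to 9.99%), with quartiles at -0.25 and -0.00. In base pairs the median difference was -203 bp (-248 to -175 bp), and single regions lay between -1924 and +1588 bp. HD covered less in 392 of the 520 regions, 75.4% (71.4 to 79.0%), and more in 128. Over all 17367 regions of both libraries, the share with less in HD was 69%. The SD of the length ratio over the isolated regions was 0.24, larger than the median itself, and single regions lay on both sides of equal length.

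**Figure D2:**
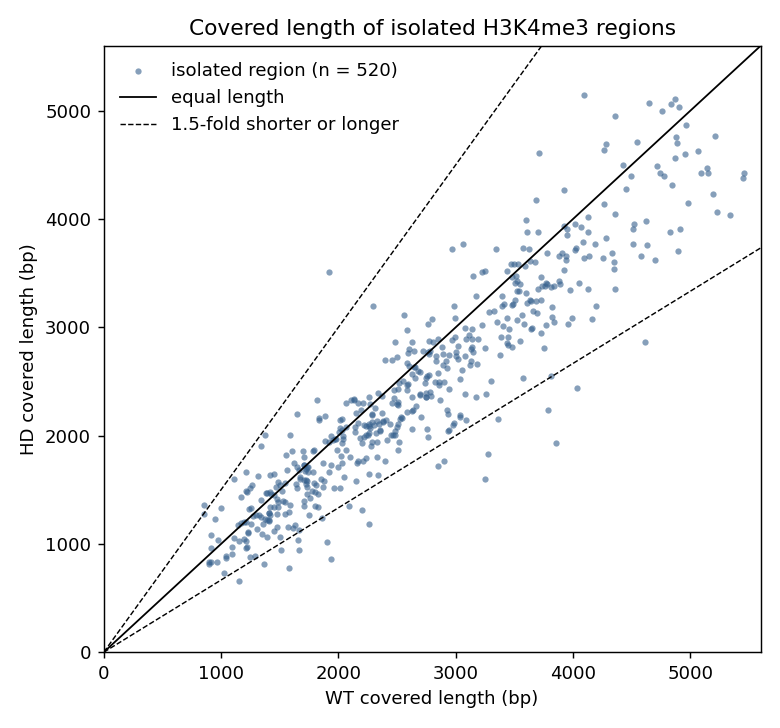
Covered length in the HD library against that in the WT library, both in bp, for the 520 isolated regions (1 point per region; solid line, equal length; dashed lines, 1.5-fold). Most points, 392, lie below the line of equal length, 21 lie below the lower dashed line and 2 above the upper.

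The ratio was somewhat lower than in regions with nearer neighbours. The other regions had a median length ratio of -0.09 (-0.09 to -0.08), or 5.94% less in HD (5.71 to 6.16%), and 68.6% (67.8 to 69.3%) of them were shorter in HD. The difference between the medians, isolated minus other, was -0.04, with an interval of -0.07 to -0.02 when the ends of the separate intervals are set against each other. No test of it over animals was possible with 1 library per genotype. Weighting classes of WT score, of HD score or of mean length by the number of isolated regions in each gave differences of -0.04 in all 3 cases. The isolated median was the lower in 5 of 6 classes of WT score, 6 of 6 classes of HD score and 5 of 5 classes of length. The score classes below 100 hold only regions that entered through the score of the other library. With HD scores from 2000 upwards, the HD score class with most isolated regions (n = 155), the medians were -0.11 and -0.10. There the intervals of the sets overlapped. Among regions with a like larger gap, the sets mostly lay closer together. The isolated and other medians were -0.09 and -0.09 below 500 kb, and -0.14 and -0.12 at 500 kb to 1 Mb. At 1 to 2 Mb they were -0.11 and -0.11, and from 2 Mb upwards -0.17 and -0.11. In each of these classes the intervals of the sets overlapped.

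The ratio followed the distance only loosely. Among the other regions the median length ratio was -0.07 with a nearest neighbour below 10 kb (n = 4625), -0.09 at 10 to 50 kb (n = 6910), -0.10 at 50 to 100 kb (n = 2345) and -0.10 at 100 to 250 kb (n = 1351). Among the isolated regions it was -0.13 at 250 to 500 kb (-0.16 to -0.11, n = 377), -0.12 at 500 kb to 1 Mb (-0.15 to -0.07, n = 114) and -0.13 from 1 Mb upwards (-0.33 to -0.09, n = 29). Beyond 250 kb the classes showed no further order, and their intervals overlapped. In the widest class the median covered length was 3089 bp for WT against 2394 bp for HD.

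**Figure D3:**
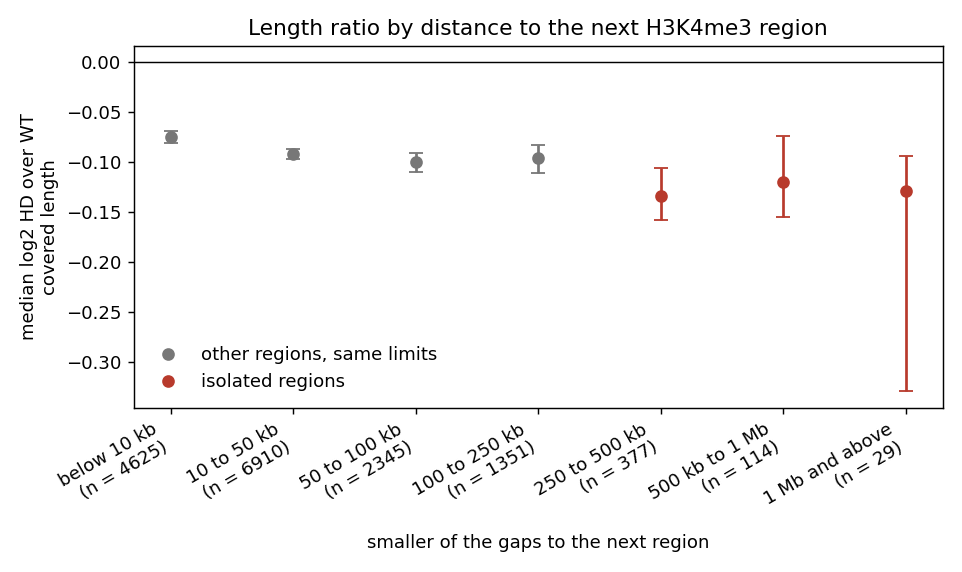
Median length ratio, log2 of HD over WT (y axis), by the smaller of a region's gaps to its neighbours (x axis), for regions of both libraries within the score and length limits (points, medians; lines, 95% order-statistic intervals). Medians run from -0.07 below 10 kb to between -0.12 and -0.13 in the isolated classes, whose intervals are wide.

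Read by score class, the shorter HD length was present at most but not all levels. In isolated regions with WT scores of 100 to 200, 200 to 500 and 500 to 1000 the median length ratios were -0.15, -0.15 and -0.15, against -0.10, -0.08 and -0.08 in the other regions. At WT scores of 1000 to 2000 and from 2000 upwards they were -0.12 and -0.12, against -0.10 and -0.09. The 25 isolated regions with a WT score below 100 had a median of 0.03 (-0.13 to 0.10), and the 13 with an HD score below 100 one of -0.31, with all 13 shorter in HD. These weakest regions entered through the score of the other library alone. Where both scores reached 1000, 219 isolated regions had a median of -0.12 (-0.15 to -0.09), and 7314 other regions one of -0.10 (-0.10 to -0.09). There 171 of the 219, 78.1% (72.0 to 83.4%), were shorter in HD, and the ratios spanned -0.69 to 0.48. Of the other regions with such scores 74.0% were shorter in HD, a share inside the interval of the isolated regions. The intervals of the median ratios of both sets overlapped as well, so the sets were not separated at these scores.

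**Figure D4:**
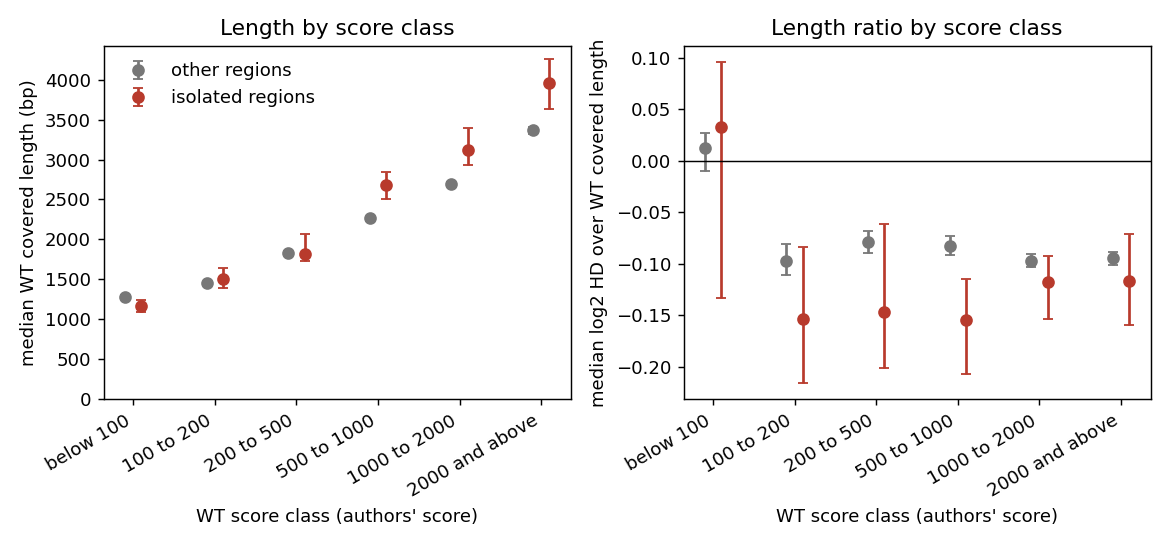
Median WT covered length in bp (left) and median length ratio on the log2 scale (right) by class of the authors' WT score, for isolated (red) and other (grey) regions, with 95% order-statistic intervals. From a score of 500 upwards isolated regions have the longer median WT covered length, and in 5 of 6 classes their median ratio is lower.

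The difference was present at both ends of the peaks. In the 503 isolated regions with exactly 1 peak of each library, the left HD edge was shifted inward of the WT edge by a median of 88 bp (58 to 104 bp) and the right by 102 bp (86 to 125 bp). In 14986 other regions with 1 peak each these shifts were 61 and 63 bp. Neither HD edge extended past its WT counterpart in 236 isolated regions, 46.9% (42.5 to 51.4%), against 42.6% (41.8 to 43.4%) of the other regions. Neither fell short of it in 49, 9.74% (7.29 to 12.7%), against 13.4% (12.8 to 13.9%). In 218 the edges moved in opposite senses relative to the peak, 1 inside and 1 outside. This share of 43.3% (39.0 to 47.8%) was close to the 44.0% (43.2 to 44.8%) of the other regions.

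Large inward edge shifts were more frequent than in the other regions. In 61 isolated regions, 12.1% (9.40 to 15.3%), an HD edge lay more than 500 bp inside the WT edge, against 6.25% (5.86 to 6.65%) of the other regions. This was the left edge in 27 regions and the right edge in 34, and in 0 regions both, which allows a share of up to 0.731%; among the other regions both edges did so in 17 of 14986. Large inward shifts of either edge were few, so a region with both would be rare even if the edges moved independently. The 0 regions with both therefore do not show that the shifts were one-sided. An edge more than 500 bp outside was found in 11 isolated regions, 2.19% (1.10 to 3.88%), close to the 2.36% (2.12 to 2.61%) of the other regions. The medians did not depend on which side was emptier: the edge facing the wider gap lay 95 bp inside (66 to 112 bp) and that facing the narrower gap 95 bp inside (80 to 113 bp).

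**Figure D5:**
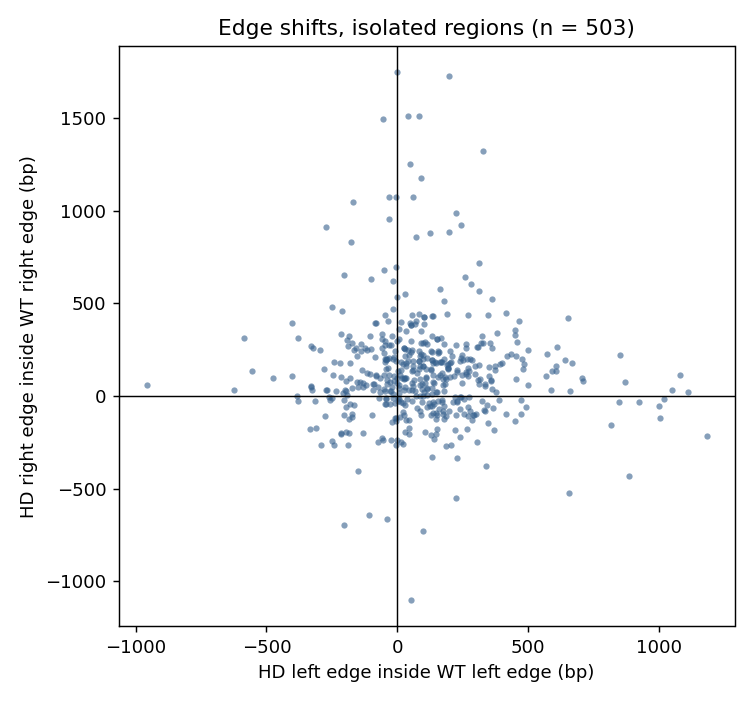
Distance by which the HD edge lay inside the WT edge, left edge on the x axis and right edge on the y axis, both in bp, for the 503 isolated regions with 1 peak of each library; negative values lie outside. No point lies more than 500 bp inside on both axes. Some points more than 500 bp inside on 1 axis are also inside on the other, as at 651 and 423 bp.

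Division into several peaks was rare. HD had more peaks than WT in 12 isolated regions, 2.31% (1.20 to 4.0%), and fewer in 4, against 1.38% and 0.360% of the other regions. No region held more than 2 peaks of a library.

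Differences in length beyond 1.5-fold were few. HD was more than 1.5-fold shorter in 21 isolated regions, 4.04% (2.52 to 6.11%), where the share over all regions of both libraries was 2.79%. It was more than 1.5-fold longer in 2, 0.385% (0.0466 to 1.38%), where that share was 0.749%. Both intervals hold these shares over all regions of both libraries. Among the other regions 2.32% (2.09 to 2.57%) were that much shorter and 0.740% (0.610 to 0.889%) that much longer. The share of 2.32% lay below the interval of the isolated regions, although the intervals of the 2 sets overlapped. The 21 shorter regions lay on 14 chromosomes, had 1 peak of each library, and were mostly of modest score, with a median of 288 in WT and 14 of 21 below 500. Of these 21, 3 had an HD score below 100 and entered through the WT score alone. Both HD edges lay inside in 19 of the 21, and in 15 an edge lay inside by more than 500 bp. With both scores at 1000 or more, 1 of 219 isolated regions was that much shorter and 0 that much longer, against 82 and 5 of 7314 other regions.

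The lowest ratio was found on chromosome 5 at 105287914 to 105289851, where a WT peak of 1938 bp faced an HD peak of 864 bp (length ratio -1.17). This was a weak region, with scores of 130 in WT and 79.8 in HD. Next came a region on chromosome X at 80059336 to 80062583, 3248 bp long in WT against 1598 bp in HD (-1.02). Here the HD edge lay inside by 328 bp on the left, so most of the difference was on the right. On chromosome 16 at 26967287 to 26968864 the lengths were 1578 and 779 bp (-1.02), although the score was 399 in HD and 227 in WT.

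The fourth, on chromosome 1 at 117580617 to 117584471, was 3855 bp long in WT against 1931 bp in HD (-0.997), and it was the highest scoring of the 8 with the lowest ratios, at 566 in WT and 529 in HD. Chromosome 1 held 2 more, at 81589635 to 81591535 with 1901 and 1016 bp (-0.90), and at 101668484 to 101671809 with 3273 and 1832 bp (-0.84). The list was completed by chromosome 9 at 6167985 to 6170249, with 2265 and 1184 bp (-0.94), and chromosome 14 at 120256024 to 120257688, with 1665 and 944 bp (-0.82). All 8 had WT scores between 115 and 566, below the median of the isolated regions. The chromosome 5 and 14 regions had HD scores of 79.8 and 62.0, below the limit of the rule. They entered through the WT score alone, that of the library in which they were longer.

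The highest ratio belonged to chromosome 14 at 47005284 to 47008936, where the WT library had 1 peak of 1921 bp and the HD library 2 peaks over 3509 bp (length ratio 0.87). On chromosome 2 at 174966600 to 174967958, the WT peak measured 853 bp against 1359 bp in HD (0.67). These were the 2 regions past 1.5-fold. Both had scores below 400 in each library.

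The other 6 of the highest ratios stayed below that fold. Chromosome 18 at 28235801 to 28237074 had 855 and 1274 bp (0.58), and chromosome 7 at 15207140 to 15209240 had 1372 and 2002 bp (0.55). Chromosome 8 at 58418514 to 58420109 had 1114 and 1596 bp (0.52), and chromosome 12 at 20201837 to 20203737 had 1343 and 1901 bp (0.50). The chromosome 18 and 8 regions had WT scores of 54.7 and 85.5, below the limit of the rule, and entered through HD scores of 190 and 228. Chromosome 14 at 101148709 to 101150375 had 1216 and 1667 bp (0.46).

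A strongly scored region among them was that on chromosome 10 at 112363739 to 112366993, 2298 bp long in WT against 3195 bp in HD (0.48), with scores of 2179 and 2452. Its HD left edge lay 957 bp outside the WT edge. Of the isolated regions with both scores at 1000 or more, it had the highest ratio.

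Ranked by the smaller of its gaps, the most remote region lay on the X chromosome at 126283450 to 126285904, with 6.06 Mb to its left neighbour and 3.93 Mb to its right. Its WT peak measured 2336 bp against 2394 bp in HD (length ratio 0.04), so this peak was not the shorter in HD. Second by this measure was the chromosome 1 region at 117580617 already described, with gaps of 3.27 and 2.62 Mb and the fourth lowest ratio of all 520. Another 2 on X, at 61527811 to 61531461 and at 85357297 to 85362223, had ratios of -0.29 and -0.33.

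The other 4 of the 8 with the widest smaller gaps were as mixed. On chromosome 15 at 16657626 to 16661410, HD covered 2236 bp and WT 3785 bp (-0.76). On chromosome 6 at 79968416 to 79973755 the lengths were 4037 and 5340 bp (-0.40). On chromosome 1 at 111878156 to 111880664 they differed by 4 bp (-0.00), and on chromosome 12 at 68319510 to 68324612 HD covered 5068 bp and WT 4833 bp (0.07). HD was thus shorter in 6 of the 8, by up to 1924 bp.

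The highest scoring isolated regions were long, and their lengths in the libraries differed by less than 1.5-fold. Leading them was chromosome 7 at 124523317 to 124528361, with scores of 3172 in WT and 3100 in HD and covered lengths of 4966 and 4869 bp. The second, chromosome 6 at 133984131 to 133987854, measured 2972 bp in WT against 3724 bp in HD (length ratio 0.33). The third was the remote chromosome 12 region at 68319510. The score of 3100 is shared by many peaks, so ranks at this end rest partly on the rule that ties go to the longer region.

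Of the other 5, chromosome 2 at 143370487 to 143375938 measured 5449 bp in WT against 4379 bp in HD (-0.32), and chromosome 10 at 118302987 to 118307965 had 4979 and 4145 bp (-0.26). The region on chromosome 15 at 60652237 to 60657230 had a ratio of -0.06. Chromosome 8 at 17531510 to 17536381 gave -0.09. The last, chromosome 12 at 39504118 to 39508926, gave 0.02. The ratios of all 8 lay between -0.32 and 0.33.

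By mean covered length, the widest isolated region was on chromosome 13 at 28507678 to 28512788, 4872 bp long in WT against 5111 bp in HD. It was followed by chromosome 2 at 16276545 to 16281752 (5208 and 4769 bp), chromosome 1 at 90594547 to 90599726 (4902 and 5035 bp), the chromosome 12 region at 68319510, and chromosome 11 at 34933632 to 34939089 (5458 and 4428 bp). In 3 of these 5 HD covered more than WT. Width and score did not go wholly together in WT: the chromosome 1 region had a WT score of 1366, the lowest of these 5. That was still above the isolated median of 875, and its HD score was 2767.

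By the same measure the narrowest was on chromosome 17 at 54437358 to 54438284, 894 bp long in WT against 815 bp in HD. The others were on chromosome 2 at 176583371 to 176584269 (899 and 838 bp), chromosome 7 at 84916427 to 84917435 (914 and 833 bp), chromosome 6 at 31888255 to 31889280 (1026 and 728 bp) and chromosome 15 at 19205680 to 19206766 (964 and 830 bp). All 5 were shorter in HD, with length ratios between -0.50 and -0.10, and all had WT scores of 235 or less. The chromosome 17 and 7 regions, with WT scores of 70.0 and 84.1, entered through the HD score alone. The chromosome 15 region, with an HD score of 52.0, entered through the WT score alone.

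The longest unbroken series ran along the X chromosome from 75828046 to 82296164, 7 isolated regions with between 502 kb and 1.55 Mb from each to the next. From left to right, WT and HD covered 1727 and 1590 bp, 1328 and 1263 bp, 3576 and 2532 bp, 1800 and 1350 bp, 3248 and 1598 bp, 1543 and 1273 bp, and 3017 and 2833 bp. HD was the shorter in all 7, with length ratios from -1.02 to -0.07. The fifth is the region at 80059336 with the second lowest ratio of all. The X chromosome as a whole had a median ratio of -0.15 (-0.20 to -0.06) over its 53 isolated regions, against -0.13 (-0.15 to -0.11) over 467 on autosomes, and the intervals overlapped widely.

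By chromosome, the median length ratio of isolated regions was below 0 on all 19 chromosomes with at least 5 of them, from -0.18 on chromosome 10 to -0.03 on chromosome 7. It was lower than that of the other regions of the same chromosome on 14 of the 19. On the other 5, chromosomes 7, 13, 14, 16 and 18, the isolated median was the higher, at -0.03, -0.05, -0.05, -0.07 and -0.07 against -0.08, -0.11, -0.11, -0.08 and -0.11 in the other regions. On chromosomes 4, 7, 8, 11, 13, 14, 16 and 18 the interval of the isolated median reached above 0.

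The regions closest to each limit of the rule were as follows. Just inside the score limit were chromosome 16 at 55555670 to 55557020, with a WT score of 100.6, and chromosome 9 at 68116062 to 68117205, with an HD score of 100.8. Just outside were chromosome 16 at 66585707 to 66586716, with 98.0, and chromosome 1 at 109486162 to 109487440. On the inner side of the length limit stood the chromosome 13 region at 28507678 and the chromosome 2 region at 16276545, with mean lengths of 4992 and 4989 bp. On its outer side stood chromosome 2 at 55287372 to 55292806 and at 124434487 to 124439838, with 5058 and 5091 bp.

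For the distance limit, the pair just inside were neighbours on the X chromosome, at 16895935 to 16897293 and 17147954 to 17149758, 250.7 kb apart. Just outside were chromosome 7 at 120908790 to 120912214 and chromosome 16 at 85549650 to 85550912, with smaller gaps of 249.8 and 249.5 kb. Their length ratios were 0.08 and -0.04 inside and -0.02 and 0.06 outside.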

How the data were processed

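H3K4me3 ChIP-seq of hippocampus was analysed from 1 peak list per library; the input library was not used here. Reads were single-ended and 50 bp long, per the series' design text. BWA 0.5.9, SAMtools and CASAVA 1.8.2 and the builds mm9 and NCBIM37, 2 names of 1 assembly, come from the submitters' processing notes. Peaks are labelled with MACS in the files, with version, control and settings not given in the sources used here. Each score deposited by the authors has no unit in the files. It resembles a transformed p-value and depends on its own library, so scores were used to filter, rank and class peaks. The other deposited values are peak starts and ends.

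Peaks were joined, gaps measured as base pairs between regions, and lengths compared with numpy 2.4.6, scipy 1.17.1, pandas 2.3.3 and matplotlib 3.10.9 under Python 3.11.15, and the steps were tested on simulated lists. Of the 20211 regions, 42 had no neighbour on a side and could not be isolated. With 1 library per genotype no p-value was computed, and 1.5-fold served as the size of a large difference. The members, classes and comparisons were chosen with earlier results of these data known. Named are the 8 isolated regions with the widest smaller gap, the 8 with the highest summed score, the 8 lowest and 8 highest length ratios, the 5 widest and 5 narrowest by mean covered length, the longest series, and 2 regions on each side of each limit. Genes, exons and sequences were not analysed here: the gene table used here is of build GRCm38, not that of the peaks. Alternatives varied the gap, neighbours, score and length limits, joining, overlap and chromosomes. Coordinates are mm9, counted from 1.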

Additional observations from a re-analysis of the deposited data

How the results depend on the processing

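The rule sets the number of isolated regions: 520 as described, 1871 with a gap of 100 kb and 143 with 500 kb. With 100 kb the median log2 ratio was -0.11 instead of -0.13, and 71.2% were shorter in HD instead of 75.4%. Of the 1871, 65 were over 1.5-fold shorter and 10 over 1.5-fold longer. With 500 kb these 2 counts were 6 and 0 of 143, against 21 and 2 of 520 as described. Such counts also change with the size of the set. Over all 17367 regions of both libraries the shares were 2.79% and 0.749%. With 500 kb the median covered lengths were 2810 bp in WT and 2468 bp in HD. The excess of WT length over other regions was then 451.5 bp instead of 230.5 bp, and the left edge shift 56 bp instead of 88 bp. A minimum score of 200 gave median lengths of 2754 and 2472 bp. The count over 1.5-fold longer, 2, was 4 when neighbours had to score 100 and 1 with 1 peak of each library. The difference in median ratio stayed between -0.04 and -0.02 under all 16 alternatives, and that in WT length was 71.9 bp within classes of mean length. Mean length includes the WT length, so such classes take away much of a WT length difference by construction. The classes and the edge shifts under alternatives were added after seeing the data. With peaks within 1 kb joined, the 16 regions named for their ratios kept their values. Gene starts were not analysed here. No paired analysis was possible because WT and HD had a single library each. Depth is unknown, which limits what a short HD peak can show.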

Other observations

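Peaks called in 1 library also stood alone in long unmarked stretches. Of 680 regions of any kind with at least 250 kb free on both sides, 99 were called in 1 library, 14.6% (12.0 to 17.4%), against 14.1% (13.6 to 14.5%) of the regions with nearer neighbours. Among these 99, 59 were WT-only and 40 HD-only, so 59.6% (49.3 to 69.3%) were WT-only. Among the 2745 regions of 1 library with nearer neighbours, 960 or 35.0% (33.2 to 36.8%) were WT-only and 1785 HD-only. The isolated ones were weak, with median scores of 65.6 for WT-only and 73.0 for HD-only and highest scores of 173 and 230.

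Isolated regions of both libraries beyond the limits of the rule were few. A mean length of 5000 bp or more was reached by 34, which had a median log2 ratio of -0.09 (-0.20 to -0.03), and 26 of them were shorter in HD. In the 642 regions of that length and score with nearer neighbours the median was -0.07 (-0.08 to -0.06). A further 27 isolated regions scored below 100 in both libraries, with a median of -0.11 (-0.25 to 0.14).

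Among the other regions with single peaks, the HD edge facing the wider gap lay 65 bp inside the WT edge (61 to 69 bp) and that facing the narrower gap 59 bp (56 to 63 bp), against 95 and 95 bp in the isolated regions.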
